A study of Mus musculus with 2 samples.

Results

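The guanylate-binding proteins (GBPs) and the immunity-related GTPases (IRGs) are 2 families of large GTPases that mouse cells make in response to interferon. The levels of 9 of their genes, Gbp2, Gbp3, Gbp4, Gbp5, Gbp7, Gbp8, Irgm1, Igtp and Iigp1, were followed through single-cell RNA sequencing of immune cells from MC38 tumors, a mouse colon carcinoma model. The members were taken by symbol from the gene table, where each of the 9 matched 1 of 32285 genes. The question was whether their transcripts followed the type I interferon genes, such as Isg15, or followed Ifng, the gene of interferon-gamma, after irradiation.

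The Control library came from tumors that were not irradiated, and the IR library from tumors given a single 20 Gy dose of ionizing radiation 4 days before collection. Both came from wild-type (WT) mice that carried MC38 tumors, and 4 tumors were pooled in each before live CD45+ cells were sorted. There was 1 library per group, so no difference below has a replicate check, no p-value is given, and the spread between mice cannot be told apart from the effect of radiation. The labels also name a narrower cell type, CD45+CD11b+Ly6Chi, but T cells, NK cells, dendritic cells (DCs) and neutrophils were present in both libraries.

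In the biology known for these genes, interferon-gamma binds the receptor made by Ifngr1 and Ifngr2, acts through gamma-activated sites (GAS) in promoters and induces the transcription factor IRF1. Type I interferons bind the receptor made by Ifnar1 and Ifnar2 and act through interferon-stimulated response elements (ISREs). GBPs and IRGs assemble on the membranes around intracellular parasites and bacteria, and in the IRG family Irgm1 and Igtp (also called Irgm3) hold the effector GTPases, such as Iigp1, in check on the membranes of the cell itself.

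The 9 genes lie in a few clusters. In the GENCODE annotation of GRCm38, Gbp5 (chr3:142493978-142522344), Gbp7 (chr3:142530342-142550149), Gbp3 (chr3:142560026-142573209) and Gbp2 (chr3:142620602-142638008) follow each other on the plus strand of chromosome 3. Gbp4 (chr5:105115767-105139586) and Gbp8 (chr5:105014150-105139540) lie on the minus strand of chromosome 5 and overlap each other and Gbp9, so reads from their shared stretch may be split or lost in counting and their levels are less certain. Igtp (chr11:58199556-58207591) overlaps Irgm2 on the plus strand of chromosome 11, with the same limit. Irgm1 (chr11:48861968-48871683) is on the minus strand of chromosome 11, away from Igtp, and Iigp1 lies apart from all of these.

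Promoter sequences are shown because both interferon pathways act through short sites that can be read in them. RefSeq windows of GRCm38.p6, from 250 bases before to 50 bases after the transcript start, were given for 6 of the 9 members. Each was searched for the letters TTCNNNGAA (GAS) and, on both strands, GAAANNGAAA (ISRE). An ISRE match was present in 6 of the 6 members with a window and a GAS match in 3, while 3.44% of all 32851 windows held an ISRE match, 8.30% a GAS match and 0.454% both. The sites with ISRE letters are given below with the matched letters in capitals (overlapping matches run together), on the strand where they read GAAA, with positions counted from the transcript start. The member sites are shown to compare with that of Isg15.
Gbp2 (chr3:142620594-142620623, minus strand, -69 to -40): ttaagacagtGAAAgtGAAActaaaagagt
Gbp3 (chr3:142559992-142560021, minus strand, -52 to -23): gatctggGAAAtaGAAActGAAActgtgtc
Gbp5 (chr3:142496759-142496788, minus strand, -175 to -146): tctctaaactGAAAttGAAActacacaagt
Gbp7 (chr3:142530273-142530302, minus strand, -63 to -34): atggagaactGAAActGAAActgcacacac
Irgm1 (chr11:48871428-48871457, minus strand, -37 to -8): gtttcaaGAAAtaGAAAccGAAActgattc
Igtp (chr11:58199507-58199536, plus strand, -49 to -20): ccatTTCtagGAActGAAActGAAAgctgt
Isg15 (chr4:156200871-156200900, minus strand, -82 to -53): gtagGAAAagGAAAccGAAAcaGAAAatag

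The Igtp site carried a GAS match 2 bases before its ISRE match, and the capitals mark both. Gbp7 held 2 GAS matches and Gbp5 also held 2. The GAS sites of Gbp7 and the nearer one of Gbp5 are shown beside that of Irf1, whose promoter had a GAS match and no ISRE match.
Gbp5 (chr3:142496872-142496901, plus strand, -62 to -33): tggccgttatTTCtcaGAAccaagcacaga
Gbp7 (chr3:142530229-142530258, plus strand, -107 to -78): tTTCcagGAAaagcagaagcTTCtcaGAAa
Irf1 (chr11:53769914-53769943, plus strand, -100 to -71): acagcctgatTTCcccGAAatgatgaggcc

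Letters that match are a description and not a bound site. Gbp2, Gbp3 and Irgm1 had ISRE letters and no GAS letters in the window, as did Isg15. The window of Cxcl9, a chemokine gene commonly used as a readout of interferon-gamma, held neither.

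Counts are unique molecular identifiers (UMIs), each 1 captured RNA molecule. Barcodes with at least 1000 UMIs, at least 200 genes and at most 25% mitochondrial UMIs were taken as cells, 4679 in Control and 3410 in IR, with 41533178 and 37842119 UMIs and a median of 7302 and 8268.5 per barcode. Barcodes were put into lineages by marker genes that include no member and no interferon-list gene. The monocyte gate held 633 Control and 806 IR barcodes, the macrophage gate 1979 and 579, the DC gate 141 and 171, the neutrophil gate 25 and 181, the T cell gate 385 and 237, and the NK cell gate 272 and 348. A stromal gate, set by collagen and keratin genes, held 90 and 93 barcodes with Ptprc, the gene of CD45, at 5.05 and 8.70 CPM (UMIs of a gene per 1000000 UMIs of that gate and library), against 181 to 1029 CPM in the DC, monocyte, macrophage, neutrophil, T cell and NK cell gates. Its barcodes were large, with medians of 17675.5 and 31461 UMIs. Through the keratin genes the gate may hold carcinoma cells beside collagen-expressing cells, and their shares in each library were not tested. The B cell and mast cell or basophil gates held too few UMIs for ratios of single members. The macrophage gate itself differed between libraries, with Ly6c2, a monocyte gene that interferon can raise, at 80.8 and 749 CPM (Control and IR), and Hbb-bs, a red cell gene, at 0.264 and 233 CPM. The part of these shifts in the results below was not tested.

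The ligands differed between the libraries in opposite ways, each in a different gate. In the T cell gate, Ifng was at 307 CPM in Control (716 UMIs) and 151 CPM in IR (336 UMIs), a log2 ratio of IR over Control of -1.02 (95% counting interval -1.21 to -0.83). The share of T cell barcodes with an Ifng UMI differed less. With 1000 UMIs drawn from each barcode it was 13.2% in Control (10.0 to 17.0) and 9.70% in IR (6.25 to 14.2). With all UMIs it was 33.0% and 35.0%. In the NK cell gate Ifng was at 120 and 105 CPM, with an interval that held 0 (-0.44 to 0.04). Over all barcodes Ifng was at 43.8 and 40.7 CPM, a log2 ratio of -0.11. Barcodes that passed several gates were at 105 and 101 CPM. The lower Ifng level in IR was thus seen in the T cell gate and hardly in the library as a whole. Among the type I ligands, Ifnb1 was seen in the monocyte gate, with 4 UMIs in Control and 40 in IR (0.877 and 5.0 CPM, log2 ratio 2.51, interval 1.04 to 4.45). Over all barcodes Ifnb1 had 6 and 46 UMIs. These and all other intervals cover counting error only and not the variation between barcodes, mice or libraries.

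Summed over the 9 members, the level was higher in IR in each of the 7 larger gates. In the macrophage, monocyte and DC gates it differed by far less than Isg15 did. In the macrophage gate, which held the most member UMIs over both libraries (the monocyte gate held more in IR), the sum was 714 CPM in Control (95% Poisson interval 702 to 726) and 942 CPM in IR (919 to 965), a ratio of 1.32. In the monocyte gate it was 744 and 934 CPM, a ratio of 1.26, and in the DC gate 611 and 736 CPM, a ratio of 1.21. Isg15, the ubiquitin-like protein gene that stands here for the type I response, went from 79.9 to 635 CPM in the macrophage gate, 154 to 918 CPM in the monocyte gate and 117 to 936 CPM in the DC gate.

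Lymphocytes held less of these transcripts. The summed level was 428 and 512 CPM in the T cell gate, a ratio of 1.20. Ifng was lower in IR in that gate, but its transcript there does not show how much interferon-gamma the T cells received. A link between Ifng and the members in T cells was not tested. In the NK cell gate the summed level was 194 and 291 CPM, the lowest level of the 7 gates, with a log2 ratio of 0.58 (0.41 to 0.76). Free RNA, estimated from barcodes under 100 UMIs, made up 6.24% of the member UMIs of the NK cell gate in Control and 13.4% in IR.

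The highest sum was in the gate with little CD45 transcript. The stromal gate was at 1165 CPM in Control (2078 UMIs) and 1985 CPM in IR (6163 UMIs), a ratio of 1.70. It held 5.77% of the gated UMIs but 9.83% of the gated member UMIs in Control, and 11.8% and 25.05% in IR. The neutrophil gate was at 454 CPM in Control, from only 37 member UMIs in 25 barcodes, and at 1448 CPM in IR, a ratio of 3.19 with a log2 interval from 1.20 to 2.19. Only 7 of the 25 Control barcodes held a member UMI, and that interval does not cover the spread between barcodes.

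**Figure D1:**
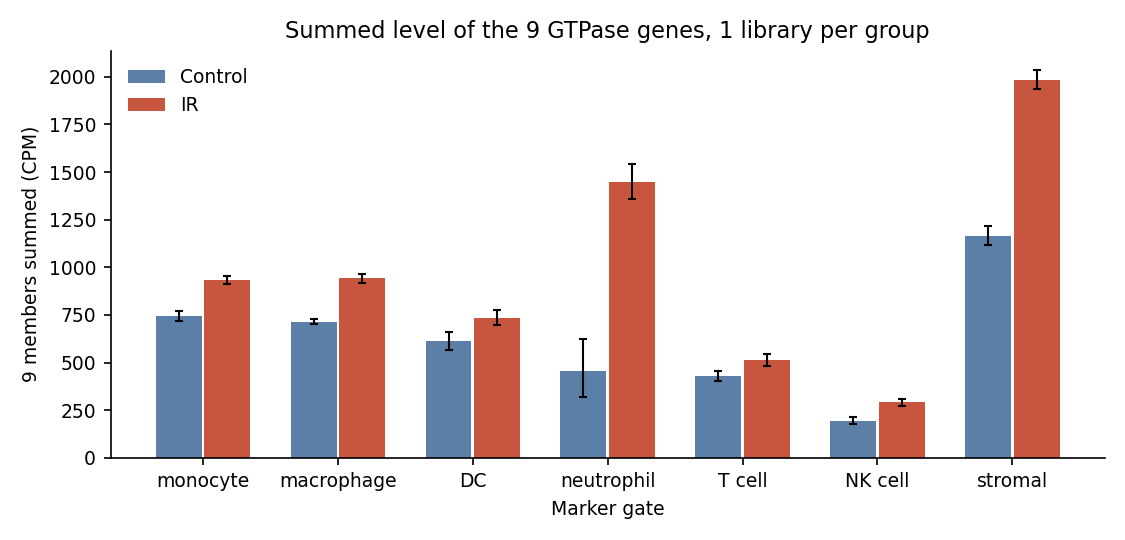
Summed level of the 9 members in CPM (vertical axis, from 0) in 7 marker gates (horizontal axis), with 1 bar for each library and exact 95% Poisson intervals of the UMI sum. The IR bar is the taller in each gate, such as 512 against 428 CPM in the T cell gate, 1448 against 454 CPM in the neutrophil gate and 1985 against 1165 CPM in the stromal gate.

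Irgm1, the IRG that regulates the other IRGs and is linked to autophagy and mitochondria, was higher in IR in each gate. It went from 90.4 to 173 CPM in the monocyte gate (ratio 1.91), from 64.0 to 133 CPM in the macrophage gate (2.07) and from 40.7 to 102 CPM in the DC gate (2.49). It was also higher in IR in the T cell gate (33.0 and 54.0 CPM, 1.63), the NK cell gate (17.7 and 34.9 CPM, 1.97) and the stromal gate (99.2 and 188 CPM, 1.90). In the neutrophil gate Irgm1 had 4 UMIs in Control and 184 in IR, a log2 ratio of 2.47 (1.09 to 4.36). Irgm1 was the only member whose ratio was at least 1.5 in all 7 gates, with log2 intervals above 0 in each.

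Igtp, the second regulatory IRG among the members, had ratios near those of Irgm1 in most gates. Its levels were 57.2 and 104 CPM in the monocyte gate, 54.4 and 97.7 CPM in the macrophage gate and 137 and 291 CPM in the stromal gate. In the T cell gate, where Igtp had a higher Control level than any other member, it was at 92.6 and 102 CPM, with a log2 interval of -0.14 to 0.42. Thus Igtp had a ratio of at least 1.5 in 6 of the 7 gates, with the T cell gate as the exception.

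Iigp1, the effector IRG that coats the parasite vacuole, behaved differently. In the macrophage gate it was at 116 CPM in Control and 108 CPM in IR, a log2 ratio of -0.11 with an interval of -0.23 to 0.01. In the monocyte gate it was at 35.3 and 44.2 CPM and in the T cell gate at 27.0 and 24.7 CPM. Its highest level was in the stromal gate, 264 CPM in Control and 429 CPM in IR, a log2 ratio of 0.70 (0.55 to 0.85). Iigp1 was nearly missing from NK cells, with 3 UMIs in Control and 21 in IR.

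Gbp2, the most abundant member, made up 45.9% of the member UMIs in the monocyte gate and 38.2% in the macrophage gate of the Control library. Gbp2 is a lipid-anchored GBP that is recruited to the vacuoles of Toxoplasma. It was at 342 CPM in Control and 328 CPM in IR in the monocyte gate (log2 interval -0.15 to 0.03), and at 320 and 302 CPM in the DC gate (-0.28 to 0.11). In those 2 gates its level did not differ beyond counting error, while Irgm1 had ratios of 1.91 and 2.49 there. Gbp2 was higher in IR in the macrophage gate (273 and 325 CPM), the T cell gate (67.7 and 109 CPM), the NK cell gate (25 and 46.6 CPM) and the stromal gate (445 and 625 CPM). With a monocyte gate built on Ly6c2, Plac8 and Ms4a4c, which moves barcodes between both phagocyte gates, the log2 ratio of Gbp2 in macrophages was 0.03 in place of 0.25, that of Gbp3 0.12 in place of 0.32 and that of Gbp5 0.13 in place of 0.45. Neutrophils of the IR library held 700 CPM of Gbp2, the highest level of a member in any gate, against 209 CPM from 17 UMIs in Control.

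Gbp5, which promotes assembly of the NLRP3 inflammasome, was highest in the DC gate. It was at 67.0 CPM there in Control and 119 CPM in IR, a log2 ratio of 0.82 (0.44 to 1.23), and differed less in the monocyte gate (39.9 and 52.7 CPM) and the macrophage gate (28.6 and 39.2 CPM). In the T cell gate it was at 12.0 and 21.6 CPM, from 28 and 48 UMIs. DCs were thus the gate in which Gbp5 and Irgm1 were higher while Gbp2 and Gbp4 were not, with Gbp4 at 54.3 and 46.5 CPM and an interval that held 0.

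Gbp4 was higher in IR in the macrophage gate (36.3 and 69.6 CPM, log2 ratio 0.94), the monocyte gate (35.7 and 54.7 CPM, 0.61), the NK cell gate (25.5 and 40.9 CPM, 0.68) and the stromal gate (29.7 and 62.2 CPM, 1.06). In the T cell gate it was at 55.7 and 63.0 CPM, with a log2 interval of -0.18 to 0.53. Gbp3 differed most in the stromal gate, where it was at 81.9 and 207 CPM, a log2 ratio of 1.34, and only slightly in the monocyte gate (68.0 and 79.8 CPM) and the macrophage gate (52.7 and 65.9 CPM).

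Gbp7 and Gbp8 differed by less than 1.5-fold in the monocyte and macrophage gates. Gbp7 was at 63.0 and 81.2 CPM in the monocyte gate, a log2 ratio of 0.37 (0.16 to 0.57). It was at 68.5 and 78.6 CPM in the macrophage gate and 15.4 and 23.8 CPM in the DC gate. In the T cell gate it was at 81.9 and 76.0 CPM, and in the stromal gate at 90.8 and 152 CPM. Gbp8 was at 12.5 and 15.4 CPM in the monocyte gate and 20.5 and 25.8 CPM in the macrophage gate, and was a low-level gene in every gate. Its intervals held 0 in the monocyte, DC, T cell and NK cell gates. In the stromal gate Gbp8 had 2 UMIs in Control and 22 in IR, a log2 ratio of 2.66 with an interval of 0.64 to 5.79.

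**Figure D2:**
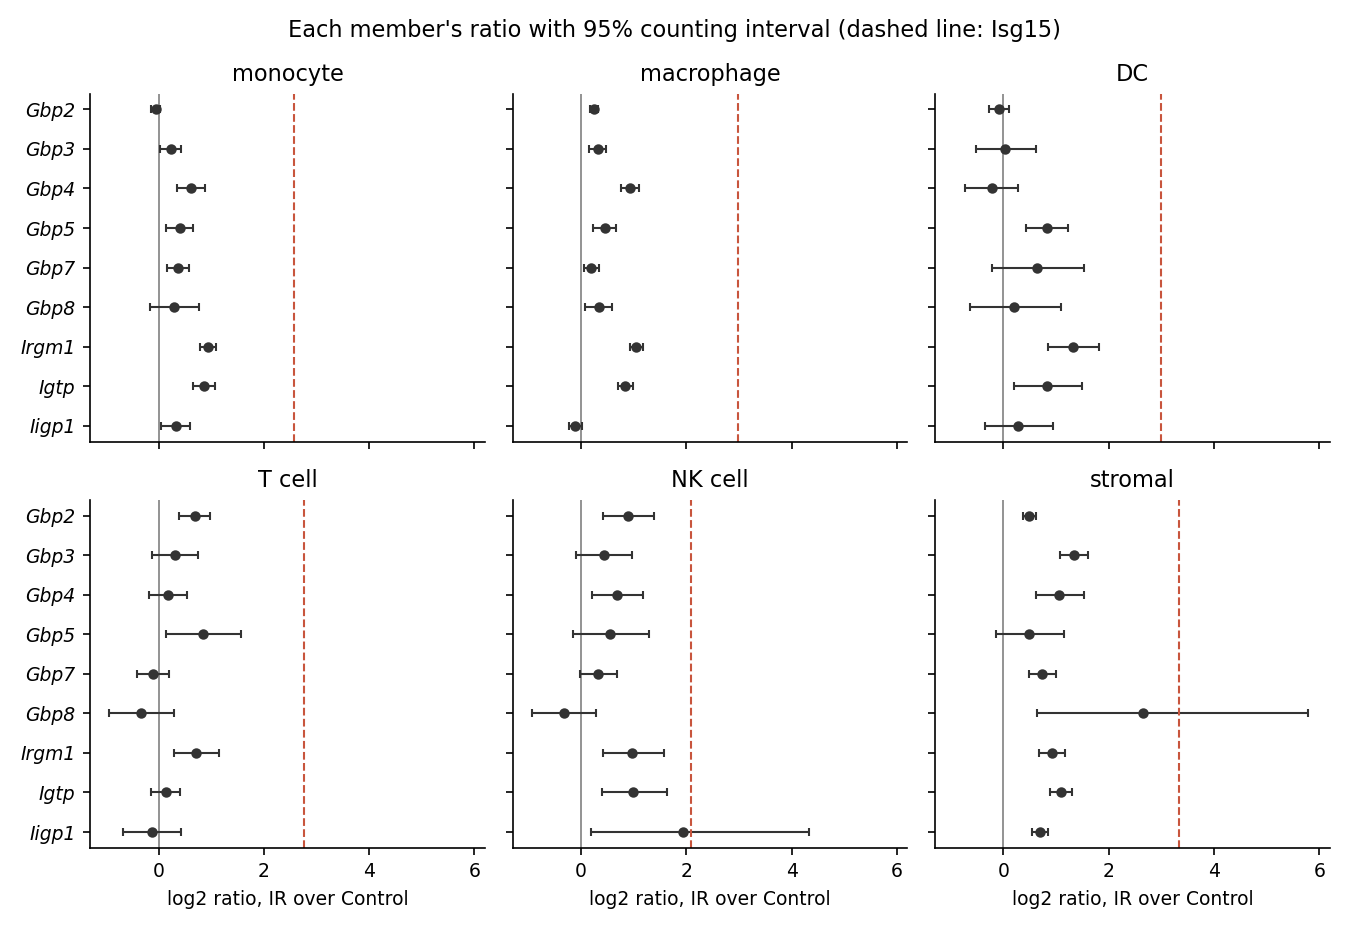
Log2 ratio of IR over Control (horizontal axis) for each of the 9 members (vertical axis) in 6 marker gates, with points for the ratio and bars for the exact 95% counting interval, and a dashed line at the ratio of Isg15 in the same gate. Irgm1 lies above 0 in each panel, Gbp2 lies near 0 in the monocyte and DC panels, and each member point but that of Iigp1 in the NK cell gate and Gbp8 in the stromal gate, which rest on few UMIs, lies well below the dashed line.

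Counts of members past a fold were read against all genes of the same gate with at least 50 UMIs over both libraries. In the monocyte gate 3 of 9 members (Gbp4, Irgm1 and Igtp) were higher in IR by 1.5-fold or more, against 6.19% of all 8871 genes, and 0 were lower, against 7.05%. Among macrophages the same 3 of 9 were higher, against 7.2% of 10452 genes, and 0 were lower, against 11.7%. In the DC gate 4 of 9 (Gbp5, Gbp7, Irgm1 and Igtp) were higher, against 9.43%, and 0 lower, against 5.41%. The interval of Gbp7 held 0 there (-0.21 to 1.54).

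Among lymphocytes, 3 of 9 members (Gbp2, Gbp5 and Irgm1) were higher in the T cell gate, against 6.48% of all genes, and 0 were lower, against 5.49%. In the NK cell gate 4 of 8 (Gbp2, Gbp4, Irgm1 and Igtp) were higher, against 7.12%, and 0 were lower, against 7.63%. The stromal gate had 6 of 8 (Gbp3, Gbp4, Gbp7, Irgm1, Igtp and Iigp1) higher, against 6.45%, and 0 lower, against 6.73%. In the neutrophil gate 5 of 5 were higher, but so were 33.4% of all genes, and 23.2% were lower, in a gate with 25 barcodes in Control. No member was lower by 1.5-fold in any of the 7 gates.

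Set beside lists of interferon genes, the members' median lay below that of the type I genes in all 7 gates, and above that of the gamma responders in 5, with the T cell and NK cell gates as the exceptions. The median log2 ratio of the members was 0.37 in the monocyte gate, 0.33 in the macrophage gate and 0.28 in the DC gate. That of 15 type I responders (Isg15 and genes of the Ifit, Oas, Mx and related families) was 2.57, 2.62 and 2.68, and every one of the 15 was higher in IR by more than 1.5-fold in the monocyte and macrophage gates. That of the gamma responders (Cxcl9, MHC class II genes, Ciita and others) was -0.67, -0.58 and -0.08. The median of all genes with at least 20 UMIs was -0.06, -0.07 and 0.04.

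The ends of these lists show the span. In the macrophage gate the type I responders ran from Oasl2 (39.0 to 153 CPM, 1.97), Oas3 (2.17) and Ifi44 (2.21) up to Ifit3b (3.22), Ifit1bl1 (3.44) and Ifit3 (8.33 to 106 CPM, 3.67), so that Irgm1, the most changed member at 1.05, lay below the lowest of them. The monocyte gate had an overlap, with Oas3 at 0.93 beside Irgm1 at 0.94. Among macrophages Cxcl9 went from 943 to 324 CPM (-1.54), H2-Eb1, an MHC class II gene, from 3972 to 2228 CPM (-0.83), and Ciita, which drives MHC class II transcription, from 52.0 to 29.2 CPM (-0.83). The gamma list was not uniform, since Irf1 (109 to 174 CPM, 0.68), Socs1 (58.8 to 117 CPM, 1.0) and Nos2 (43.6 to 102 CPM, 1.23) were higher in IR. No member followed Cxcl9 and the MHC class II genes downward in the macrophage gate beyond counting error at the main settings. Iigp1 came nearest, at -0.11 (-0.23 to 0.01). Its alternative values ran from -0.20 without the highest Scrublet scores to -0.09 with TMM scaling. In barcodes that passed several gates, which are outside this gate, Iigp1 was at 67.9 and 55.3 CPM. Its log2 ratio there was -0.30 (-0.49 to -0.10).

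In the other gates the members' median was 0.18 in T cells, 0.68 in NK cells and 0.92 in the stromal gate, against type I medians of 2.68, 2.34 and 2.65. The gamma list had medians of 0.37, 1.60 and -0.22 there, so in T cells and NK cells the members' median was below both. In the neutrophil gate the medians were 1.75 for the members, 2.69 for the type I list and 1.62 for the gamma list, from 37 member UMIs in Control. In NK cells part of the gamma list consists of myeloid genes such as H2-Eb1 (83.9 and 272 CPM), in a gate whose free RNA estimate was 2.03% of UMIs in Control and 5.23% in IR, and the part of free RNA in that median was not tested.

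**Figure D3:**
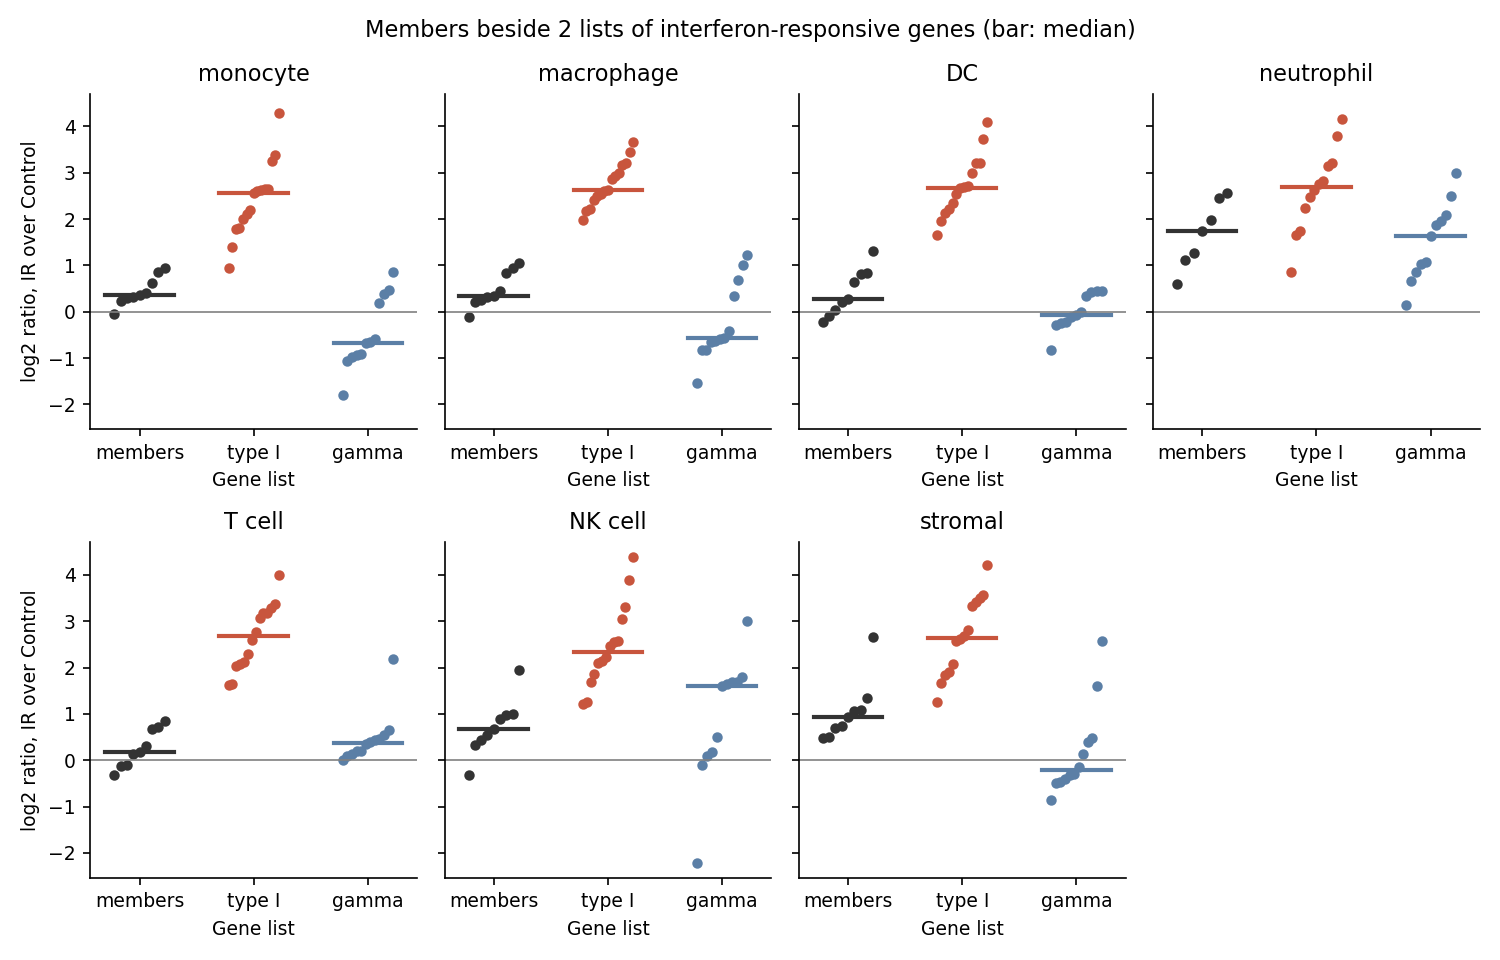
Log2 ratio of IR over Control (vertical axis) of each gene with at least 20 UMIs over both libraries and a UMI in each, in the members, the type I list and the gamma list (horizontal axis), in 7 marker gates, with a bar at the median of each list. The members' median is below the type I median in each panel, and above the gamma median except in T cells (0.18 against 0.37) and NK cells (0.68 against 1.60).

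Single barcodes showed the members beside both responses. In the monocyte and macrophage gates barcodes were split by whether a Cxcl9 or an Isg15 UMI was present among 1000 UMIs drawn from each barcode, and the member UMIs of each class were summed. Barcodes with Cxcl9 alone made up 13.9% of the Control and 4.47% of the IR monocyte gate, and 26.0% and 7.77% of the macrophage gate. Barcodes with Isg15 alone went the other way, from 9.16% to 34.2% and from 4.04% to 26.3%. At the same depth, any Cxcl9 UMI, with or without Isg15, was present in 16.9% of Control and 8.44% of IR monocytes, and in 28.8% and 14.5% of macrophages, against 3.38% and 2.53% of T cells, a lineage not known to make Cxcl9, whose median depth was 4463 and 5732 UMIs before thinning. Isg15 was present in every lineage and has no such reference.

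Member levels were high in both kinds of barcode. In the Control monocyte gate the summed members were at 436 CPM in barcodes with neither gene, 1763 CPM with Cxcl9 alone, 1195 CPM with Isg15 alone and 2498 CPM with both. In the IR monocyte gate the levels were 584, 1273, 1317 and 2136 CPM in the same order. Among macrophages they were 458, 1164, 934 and 1529 CPM in Control and 657, 1261, 1290 and 1713 CPM in IR. The lowest level was thus in barcodes with neither gene and the highest in those with both, in both gates and both libraries.

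In the Control library Gbp2 and Iigp1 were higher with Cxcl9 alone than with Isg15 alone. In the Control monocyte gate Gbp2 was at 913 CPM with Cxcl9 alone and 490 CPM with Isg15 alone, against 178 CPM with neither, and Iigp1 was at 108, 40.2 and 17.0 CPM. Irgm1 was at 126 CPM with Cxcl9 alone and 171 CPM with Isg15 alone, against 70.5 CPM with neither, and Igtp at 94.3, 110 and 40.4 CPM, with intervals of the Cxcl9 and Isg15 classes that overlapped for both genes. In the Control macrophage gate Gbp2 was at 533 CPM with Cxcl9 alone and 336 CPM with Isg15 alone, Iigp1 at 189 and 119 CPM, and Irgm1 at 81.5 and 98.5 CPM, with overlap for Irgm1. The IR library held this pattern in part, and its monocyte class with Cxcl9 alone had only 36 barcodes. Gbp2 in IR monocytes was at 459 and 455 CPM in the same classes, while in IR macrophages it was at 560 and 392 CPM. Iigp1 was at 91.3 and 68.3 CPM in IR monocytes and at 123 and 156 CPM in IR macrophages, with intervals that overlapped in both. Irgm1 was at 218 and 231 CPM in IR monocytes and at 116 and 208 CPM in IR macrophages, where the intervals did not overlap. In Control monocytes H2-Ab1, an MHC class II gene, was highest with Cxcl9 alone, at 3704 CPM. It was at 2935 CPM with both genes, 2913 CPM with Isg15 alone and 2292 CPM with neither. The median depth of the classes ran from 5326 to 6532 UMIs in Control monocytes. This split was chosen after the sums were seen.

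Irgm1 was also higher in IR within each class. Among macrophages it was at 51.1 and 91.9 CPM in barcodes with neither gene, 81.5 and 116 CPM with Cxcl9 alone, 98.5 and 208 CPM with Isg15 alone and 129 and 231 CPM with both. The intervals with Cxcl9 alone barely parted there (upper end 89.4, lower end 89.9 CPM). Among monocytes it was at 70.5 and 128, 126 and 218, 171.5 and 231, and 203 and 261 CPM in the same order. The monocyte intervals overlapped with Isg15 alone and with both genes, the latter from 19 and 32 barcodes. Iigp1 in macrophages with neither gene was at 78.8 and 74.3 CPM. Gbp2 in monocytes with neither gene was at 178 and 182 CPM, and with Cxcl9 alone at 913 and 459 CPM.

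**Figure D4:**
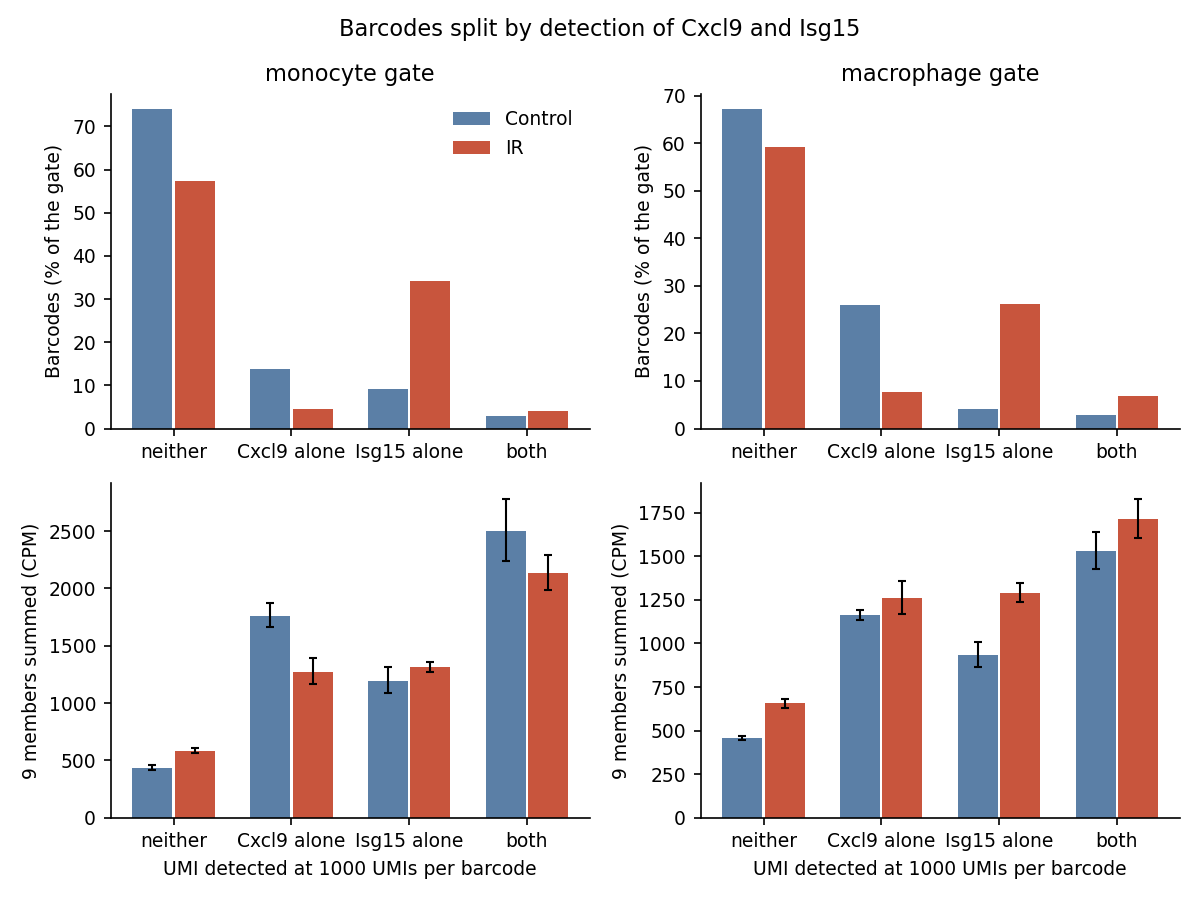
Top row, share of barcodes of the monocyte and macrophage gates (vertical axis, percent) in the classes neither, Cxcl9 alone, Isg15 alone and both, for each library. Bottom row, summed members in CPM in the same classes, with 95% Poisson intervals. The class with Isg15 alone goes from 9.16% to 34.2% of monocytes, and the summed members are lowest where neither gene was seen (436 and 584 CPM) and highest where both were (2498 and 2136 CPM).

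At equal depth many barcodes held no member UMI. After thinning to 1000 UMIs, a member UMI was absent from 59.2% of Control and 49.6% of IR monocytes, 60.2% and 49.9% of macrophages, 64.4% and 62.9% of T cells, and 61.1% and 39.8% of stromal barcodes. These shares depend on depth, and without thinning a member UMI was present in 76.8% of Control and 89.8% of IR monocytes and in 81.7% and 88.8% of macrophages. In the DC gate the mean per barcode was 0.411 and 0.778 member UMIs per 1000, a wider gap than that of the summed CPM (611 and 736), in which barcodes with many UMIs weigh more. The gap was narrower in the T cell gate, at 0.608 and 0.641 (428 and 512 CPM), and the neutrophil gate, at 0.8 and 1.64 (454 and 1448 CPM). The means were 0.847 and 1.04 in monocytes, 0.780 and 1.01 in macrophages, 0.246 and 0.339 in NK cells and 1.09 and 1.90 in stromal barcodes. Irgm1 was seen in 8.21% of Control and 17.9% of IR monocytes at that depth, and in 34.4% and 64.1% without thinning. Gbp2 was seen in 22.3% and 21.8%.

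Across barcodes thinned to 2000 UMIs, Pearson's r between the summed members and the type I list in the monocyte gate was 0.21 over 603 barcodes in Control and 0.56 over 790 in IR, and 0.21 and 0.33 in the macrophage gate. With the gamma list r was at most 0.15 in these 2 gates. Each list entered as a plain sum of UMIs, so abundant genes, here those of MHC class II, weigh most in the gamma list. The low r is therefore no statement about Cxcl9. In Control macrophages the summed members were at 458 CPM with neither Cxcl9 nor Isg15 and at 1164 CPM with Cxcl9 alone. In some other gates r with the gamma list was higher than with the type I list. It was 0.39 and 0.33 in the IR stromal gate and 0.27 and 0.25 in the IR DC gate. In the Control T cell gate it was 0.10 and 0.09. In the rest of the other gates it was lower, such as -0.01 and 0.38 in the IR neutrophil gate. The IR T cell gate had 0.12 and 0.41. Barcodes of 1 library share their sort and sequencing, and these values are a description only.

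Other genes of the families were mixed. Of 17 other GBP and IRG genes, 12 had at least 50 UMIs in the macrophage gate, of which 7 were higher by 1.5-fold, against 7.2% of all genes of that gate, and 1 lower, against 11.7%, with a median of 0.77 over the 13 genes with at least 20 UMIs. The highest ratios were those of Tgtp2 (30 and 31 UMIs, log2 ratio 1.51), Gm5431 (1.40) and Irgc1 (1.17), from few UMIs, and the lowest those of Gm4841 (18 and 2 UMIs, -1.70), Gbp2b (12.2 and 7.73 CPM, -0.66) and Irgq (-0.44). Gbp2b, the gene beside Gbp3 and Gbp2 on chromosome 3, was thus lower in IR where its neighbours were not.

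Receptor genes for both interferons differed by less than 1.5-fold in the macrophage gate. Ifngr1 was at 140 and 144 CPM (log2 ratio 0.03) and Ifngr2 at 89.8 and 99.3 CPM (0.15), while Ifnar1 was at 66.2 and 79.2 CPM (0.26) and Ifnar2 at 114 and 153 CPM (0.42). Irf1 was at 165 and 216 CPM in monocytes (0.39) and 171 and 233 CPM in DCs (0.45). Of the 17 receptor and signalling genes, 4 were higher by 1.5-fold in the macrophage gate and 0 lower, against the same 7.2% and 11.7% of all genes, with a median of 0.40. Of the 15 partners of the GTPases in autophagy and inflammasomes, 4 were higher and 0 lower in that gate, with a median of 0.30.

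Over 16 profiles (8 gates in 2 libraries), the 8 genes of 8046 whose log2(CPM + 10) was most like that of the summed members were Cdc42ep4 (r = 0.97), Plk2 (0.91), Carhsp1, Irgm2, Eps8 (each 0.90), Atf3 (0.89), Irf1 and Laptm4a (each 0.88). Gates of 1 library share that library, and the stromal gate, with the highest sum, has a large part in these values. Among them Irgm2 is of the same family and Irf1 is the interferon-induced factor named above.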

How the data were processed

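Live CD45+ cells of pooled MC38 tumors were profiled with 10x Chromium 3' v3.1 libraries, 1 Control and 1 IR. The deposited values were unnormalised UMI counts for each gene in each barcode, made on mm10. The submitters' processing notes name Cell Ranger 6.0.1, while the matrix headers name Cell Ranger 4. The matrices were unfiltered, with 48593879 UMIs in 1067746 Control barcodes and 42406461 in 990007 IR barcodes, and 7 barcodes of at least 1000 UMIs were found in both.

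Cells were barcodes with at least 1000 UMIs, 200 genes and at most 25% mitochondrial UMIs. Doublets were not removed for the main values. Lineages were gated on marker UMIs per 10000 (at least 3 marker UMIs, minimum 8 for T and NK cells, 16 for DCs, 40 for mononuclear phagocytes, 100 for neutrophils and 10 for stromal, B and mast cells or basophils), monocytes and macrophages were parted by their own markers against C1q genes, and barcodes in several gates were left out. The minimums were set after marker levels, but not member levels, were seen. UMIs were summed per gate and library and divided by total UMIs (CPM). Ratios were given for genes with at least 20 UMIs over both libraries and fold calls, at 1.5-fold, with at least 50. Sums carry exact Poisson, shares exact Clopper-Pearson and ratios exact conditional 95% intervals. Because 3' UMIs count molecules once, levels were not scaled by gene length. The steps were tested on simulated data. Python 3.11.15, numpy 2.4.6, scipy 1.17.1, pandas 2.3.3, scanpy 1.11.5 (Scrublet) and edgeR 4.0.16 (TMM scaling only) were used.

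The members, gene lists and alternatives were chosen with earlier results of these data known. Named genes were each member, the ligands, receptors and Irf1, the 3 highest and 3 lowest ratios of a list in the macrophage gate, the 8 most similar genes, and genes named as markers of a gate, of a response or of a shift between libraries. Of 17 type I genes listed 15 had a row, and of 19 other family genes 17. One gene of the signalling list that the rule would name is not reported here.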

Additional observations from a re-analysis of the deposited data

Results flagged for a closer look

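The summed members were also present in barcodes under 100 UMIs, which hold mostly free RNA and are outside the comparisons above. Their level there was 596 CPM in Control and 746 CPM in IR, a log2 ratio of 0.32 (counting interval 0.25 to 0.40). It is listed because it is a signal in data not used for the comparisons and is higher in the IR library than in Control. Irgm1 was at 64.3 and 117 CPM and Igtp at 60.9 and 100.5 CPM in these barcodes, while Iigp1 was at 72.2 and 65.4 CPM, with an interval that held 0.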

How the results depend on the processing

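No paired analysis was possible because each group held a single library. Of 500 alternative log2 ratios of the summed members, single members and Ifng, 4 changed sign, all of single members within counting error of 0: Gbp2 in monocytes (0.00017 without the highest Scrublet scores, 0.0067 with TMM scaling), Gbp3 in DCs (-0.05) and Iigp1 in T cells (0.13), the last 2 with at least 2000 UMIs per barcode. Of the summed ratio, 45 of 51 alternative values moved by less than its counting interval. The log2 ratio of the summed members moved to 0.388 in the monocyte gate and 0.203 in the macrophage gate when Ly6c2, Plac8 and Ms4a4c replaced part of the monocyte markers, and to 0.392 in the monocyte gate with TMM scaling. In the neutrophil gate it moved to 2.208 with at least 2000 UMIs per barcode and to 2.219 with TMM scaling, which shifts all log2 ratios of that gate by 0.54. In the stromal gate it moved to 0.960 without the 6% of barcodes with the highest Scrublet scores. In the macrophage gate the Ly6c2-based gate also brought Gbp2 to 0.03, Gbp3 to 0.12, Gbp5 to 0.13 and Irgm1 to 0.80. Of 28 shares of barcodes with a member UMI, 25 moved with depth. At 2-fold in place of 1.5-fold, 0 members were called higher in the monocyte, T cell and NK cell gates (2.09%, 2.36% and 2.74% of all genes), 1 in the macrophage gate (2.95%), 1 in the DC gate (2.5%), 3 in the stromal gate (1.8%) and 4 in the neutrophil gate (22.1%). The cause of each shift was not tested. Depth limits the neutrophil values in Control and the ratios of Gbp8 and, in NK cells, Iigp1.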

Other observations

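Barcodes that passed no gate held the widest difference in Iigp1. It was at 45.0 CPM in 300 Control barcodes and 214 CPM in 274 IR barcodes, a log2 ratio of 2.25 (counting interval 1.96 to 2.54), where Gbp2 was at 221 and 269 CPM. The UMIs were concentrated, with 488 of the 675 Iigp1 UMIs of the IR library (72.3%) in 10 barcodes, and 112 in 1 of them. Genes well above the other ungated barcodes in those 10 included Cxcl10 (8185 against 572 CPM), an interferon-induced chemokine gene, Sox9 (674 against 32.7 CPM), a transcription factor gene of epithelial and cartilage cells, Apol9a (456 against 13.2 CPM) and Ubd (411 against 12.5 CPM). The corresponding 10 Control barcodes, with 88 of 120 Iigp1 UMIs, included Tubb3, Cxcl10, Ubd and Tm4sf1 among such genes, with Sox9 at 245 against 8.29 CPM. These barcodes and genes were chosen after their values were seen.

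Ifng itself was at 53.9 CPM in Control and 96.2 CPM in IR in barcodes under 100 UMIs, a log2 ratio of 0.84 (0.61 to 1.06), the opposite direction to that of the T cell gate.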
